A study of Mus musculus with 8 samples.

Results

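The nuclear genes of oxidative phosphorylation were followed in alveolar macrophages, which live in the air spaces of the lung, as lung tumors formed. Members were taken by symbol from the 12701 genes of the deposited expression table, as every gene whose symbol begins with Nduf, Uqcr, Atp5, Cox4 to Cox8, or Sdh followed by a letter from a to d. Of 95 matching symbols, 1 marked as a pseudogene was dropped, and 94 members remained. They comprise 44 genes of complex I, 8 of complex II, 8 of complex III, 17 of complex IV and 17 of complex V. By role they are 20 core subunits, 61 accessory subunits and 13 assembly factors. Genes of the same machinery with other symbols, and those encoded by mitochondrial DNA, fall outside the rule.

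RNA was sequenced from macrophages sorted from the lungs of C57BL/6 mice in 3 groups. Mice of the d35 group (3 libraries) and of the d15 group (2 libraries) had received KP cells, a mouse lung tumor line, into the tail vein, and their lungs were taken 35 or 15 days later by the sample labels. Naive mice (3 libraries) received none. The growth protocol gives a harvest window that closes before day 35, so the later time is uncertain. Whether the tumor cells carried a fluorescent marker is not given per sample. Nothing in the labels ties the libraries of a group to different animals, and p-values therefore measure only how far these libraries spread, which may be technical.

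Oxidative phosphorylation is the last step of aerobic energy production in the inner mitochondrial membrane. Complexes I (NADH dehydrogenase) and II (succinate dehydrogenase) feed electrons into the chain, complexes III (cytochrome bc1) and IV (cytochrome c oxidase) pass them to oxygen, and complex V (ATP synthase) uses the resulting proton gradient to make ATP. Most subunits are encoded in the nucleus and imported, and a few in mitochondrial DNA. Alveolar macrophages live on surfactant lipid and depend on mitochondrial respiration more than many other macrophages do.

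Promoters are shown for 5 members that differed between groups and that carry, upstream of the RefSeq start, a motif of a factor known to act on respiratory genes. Sequences come from RefSeq on build GRCm38.p6, and each is the 250 bases before the annotated start, written 5′ to 3′ on the gene's strand. Capitals mark the motif on either strand. Uqcrh, Atp5e and Atp5h hold the ETS-type motif bound by GABP (nuclear respiratory factor 2), Sdhb holds the nuclear respiratory factor 1 (NRF1) motif, and Atp5g3 holds the estrogen-related receptor alpha (ERRα) motif.
Uqcrh, chr4:116075071-116075320, minus strand: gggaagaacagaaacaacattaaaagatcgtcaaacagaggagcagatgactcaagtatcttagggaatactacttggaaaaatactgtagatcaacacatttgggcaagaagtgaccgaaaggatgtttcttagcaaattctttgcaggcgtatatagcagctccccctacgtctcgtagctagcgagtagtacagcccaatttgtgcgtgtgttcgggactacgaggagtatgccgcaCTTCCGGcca
Atp5e, chr2:174464102-174464351, minus strand: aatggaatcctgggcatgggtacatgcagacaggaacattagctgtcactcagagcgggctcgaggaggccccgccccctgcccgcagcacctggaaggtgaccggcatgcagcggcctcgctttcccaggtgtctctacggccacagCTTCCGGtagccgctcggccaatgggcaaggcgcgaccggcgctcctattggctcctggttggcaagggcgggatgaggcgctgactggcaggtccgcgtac
Atp5h, chr11:115419920-115420169, minus strand: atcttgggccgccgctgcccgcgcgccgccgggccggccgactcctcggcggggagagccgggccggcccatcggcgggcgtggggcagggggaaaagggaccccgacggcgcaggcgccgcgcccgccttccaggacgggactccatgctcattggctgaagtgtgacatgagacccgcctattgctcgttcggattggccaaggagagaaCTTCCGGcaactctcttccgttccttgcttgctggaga
Sdhb, chr4:140961021-140961270, plus strand: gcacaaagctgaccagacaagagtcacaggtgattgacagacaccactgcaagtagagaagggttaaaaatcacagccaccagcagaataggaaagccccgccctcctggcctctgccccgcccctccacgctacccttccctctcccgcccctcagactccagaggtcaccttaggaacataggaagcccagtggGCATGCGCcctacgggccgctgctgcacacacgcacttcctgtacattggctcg
Atp5g3, chr2:73911327-73911576, minus strand: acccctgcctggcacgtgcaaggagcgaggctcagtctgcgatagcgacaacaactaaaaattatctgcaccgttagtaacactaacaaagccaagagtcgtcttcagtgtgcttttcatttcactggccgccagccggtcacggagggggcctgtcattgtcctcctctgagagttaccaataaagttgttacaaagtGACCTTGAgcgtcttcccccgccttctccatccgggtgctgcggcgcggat

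In these promoters the motif began 10, 102, 38, 54 and 51 bases before the RefSeq start for Uqcrh, Atp5e, Atp5h, Sdhb and Atp5g3, in that order. In the GENCODE M21 annotation, used here for transcript lengths, Atp5h and Sdhb start further upstream and their motifs lie within the gene. Of the 94 members, 77 had a RefSeq window, which runs from 250 bases before to 50 bases after the start, and motifs were counted over that window on both strands. The NRF1 motif GCATGCGC, which can overlap its own reverse complement, was present for 12 of 77 members (15.6%), against 6.2% of all 9047 tested genes with a window. The GABP motif CCGGAAG was present for 22 members (28.6%), against 21.3% of all genes. The YY1 motif AAGATGGC was present for 10 members (13.0%), against 5.5% of all genes. Of those 10, 8 belong to complex I, which holds 39 of the 77 members with a window. The ERRα motif TCAAGGTC was present for 4 members (5.2%), against 1.0% of all genes. A match describes these letters in the window and is not a measured binding site, and 50.6% of members, against 30.6% of all genes, had at least 1 of the 4 motifs.

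The deposited values are read counts scaled to library size and between libraries (scaled CPM), from 27465745 to 39572173 recovered reads per library, with 12505 to 12644 genes detected. Differences are log2 fold changes on log2(value + 1), tested with limma over the 11273 genes that reached a value of 1 in at least 2 libraries. A gene is called changed at a Benjamini-Hochberg adjusted p under 0.05 over all these genes. Of the 94 members, 90 passed that filter, and the 4 that did not are described below. All 15 alveolar macrophage markers in a fixed list were in the table, with summed values of 38928 to 52830 in d35 libraries, 38583 to 43403 in d15 libraries and 28348 to 35812 in naive libraries. Of them, Ear2, Pparg and Atp6v0d2 rose at d15, and at d35 Cd68, Ear2 and Car4 rose and Siglecf fell.

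Members differed in level over a wide range in every group. Levels are compared per kilobase of transcript, since longer transcripts collect more reads. In naive libraries Atp5b, the catalytic beta subunit of ATP synthase, had the highest level, at 665 scaled CPM per kilobase, ahead of its partner Atp5a1 at 314. The highest members of complexes IV, II and III in naive libraries were Cox4i1 at 239, Sdhd at 151 and Uqcrc1 at 138 scaled CPM per kilobase. Assembly factors lay lower, with Ndufaf4 at 5.84 and Sdhaf1 at 0.748 scaled CPM per kilobase in naive libraries.

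**Figure D1:**
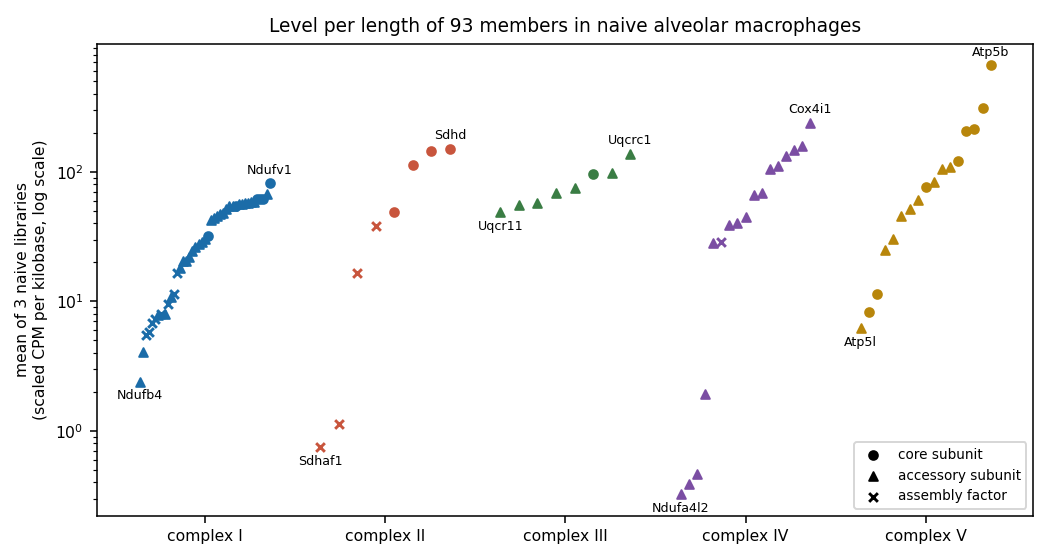
Mean level of 93 of the 94 members over the 3 naive libraries, in scaled CPM per kilobase of transcript on a log axis, ranked within complexes I to V. Circles are core subunits, triangles accessory subunits and crosses assembly factors, and the highest and lowest of the drawn members of each complex are named. Atp5b was highest at 665, and 4 complex IV members, Cox7a1 and 3 below 1, lay far under the rest of that complex.

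For several complex IV and complex V subunits the genome holds tissue isoforms, and macrophage libraries carried mainly the widely expressed ones. Cox4i1 had 237, 222 and 296 scaled CPM in d35 libraries, 235 and 264 in d15 libraries, and 166, 182 and 194 in naive libraries. Its hypoxia- and lung-associated isoform Cox4i2 stayed under the filter, at 0.137 to 0.379 in d35 libraries, 0.310 and 0.773 in d15 libraries and 0.151 to 0.442 in naive libraries. The heart and muscle isoforms Cox6a2 and Cox7a1 and the complex IV paralog Ndufa4l2 were under the filter too. Cox7a1 lay between 0.689 and 0.992 scaled CPM in all 8 libraries. The widely expressed Cox6a1, Cox7a2 and Cox8a were well above it, and Cox8b was not analysed here. Cox6b2, an isoform known from testis, was detected at 10.6, 14.1 and 16.5 scaled CPM in d35 libraries, 13.5 and 17.1 in d15 libraries, and 11.4, 13.5 and 11.9 in naive libraries, with groups that overlap. Of the 3 genes for the membrane c ring of ATP synthase, Atp5g3 had the highest level per kilobase in naive libraries, at 207, against 11.4 for Atp5g1 and 8.29 for Atp5g2. The length used for Atp5g1, 2675.5 bases, is far above the 718.5 of Atp5g3 and 586 of Atp5g2. Long annotated transcripts thus lower its level per kilobase.

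Markers of other cells differed between groups as well, and fewer cells of a type cannot be told apart from less RNA per cell. All are read in limma at the same threshold. Of 14 tested monocyte and interstitial macrophage markers, 11 rose at d35, with summed values of 1471 to 2219 in d35 libraries, 1099 and 1197 in d15 libraries and 1041 to 1236 in naive libraries. Of 13 endothelial markers, 3 fell at d15 and 8 at d35, with sums of 345 to 389 in d35 libraries, 338 and 369 in d15 libraries and 442 to 543 in naive libraries. At d35, 4 of 5 B-cell markers fell, 2 of 6 tested neutrophil markers rose, Krt8 and Krt18 rose and Epcam fell among 10 epithelial and tumor markers, and Fn1 rose while Col3a1 and Mfap4 fell among 7 fibroblast markers. Clec9a fell at d15 among 4 tested dendritic cell markers, and 0 of 3 tested T and NK cell markers were called by limma (1 was lower at d15 and 1 higher at d35 at an unadjusted p under 0.05, and DESeq2 called 1 higher at d35). Eosinophil markers were not analysed here, and the 2 erythrocyte genes listed were under the filter. At d15, 4 of 22 immediate-early and heat-shock genes rose, and at d35 3 rose and 3 fell. The part of these differences in the values of the members was not tested.

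At day 15, members of all 5 complexes had higher values than in naive macrophages, and few passed the test. The limma test called 8 of 90 members higher and 0 lower at d15 (1 lower at an unadjusted p under 0.05), where it called 2.37% of all genes higher and 2% lower. edgeR on the recovered reads called 5 members, all higher, and 1.91% of all genes higher and 1.79% lower. DESeq2 called 33 members, all higher, and 6.09% of all genes higher and 6.79% lower. The called genes were Ndufv2 in complex I, Uqcrh and Uqcrfs1 in complex III, Cox6c in complex IV, and Atp5e, Atp5h, Atp5j2 and Atp5o in complex V. The median log2 fold change of the 90 members was 0.37, against 0.01 for all genes tested, and 85 members were above 0. In 76 members both d15 libraries lay above all naive libraries, a pattern seen in 25.9% of all genes. By complex, the median was 0.34 for I, 0.29 for II, 0.40 for III, 0.38 for IV and 0.42 for V.

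Cox6c, a small structural subunit of cytochrome c oxidase, had the highest log2 fold change of any member at d15. It had 57.3, 52.0 and 67.8 scaled CPM in d35 libraries, 57.1 and 64.4 in d15 libraries, and 39.6, 41.7 and 43.7 in naive libraries. Both d15 libraries lay above every naive library (log2 fold change 0.53 ± 0.11 SE, limma adjusted p = 0.0332). Ndufv2, an iron-sulfur subunit in the NADH-oxidizing arm of complex I, had 108, 98.2 and 119 scaled CPM in d35 libraries, 106 and 119 in d15 libraries, and 76.0, 81.3 and 87.7 in naive libraries. It was the 1 complex I member called at d15 (log2 fold change 0.46 ± 0.10, limma adjusted p = 0.0351). Uqcrfs1, the Rieske iron-sulfur protein of complex III, had 168, 152 and 188 scaled CPM in d35 libraries, 171 and 179.5 in d15 libraries, and 123, 133 and 139.9 in naive libraries. Its d15 values were above all naive values (log2 fold change 0.41 ± 0.10, limma adjusted p = 0.0439).

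Among ATP synthase genes at d15, Atp5e, the epsilon subunit of the central stalk, had 45.8, 43.3 and 58.3 scaled CPM in d35 libraries, 46.8 and 46.5 in d15 libraries, and 30.6, 31.1 and 34.5 in naive libraries. The d15 libraries agree closely with each other, and the gene stood 0.53 ± 0.12 above naive on the log2 scale (limma adjusted p = 0.0434). Atp5o, the stalk subunit that confers oligomycin sensitivity, had 74.7, 70.2 and 85.6 scaled CPM in d35 libraries, 68.8 and 74.1 in d15 libraries, and 43.96, 52.6 and 55.6 in naive libraries. No d15 or d35 value of Atp5o overlapped a naive value. Atp5h and Atp5j2, which also belong to the stalk and membrane part, had log2 fold changes of 0.43 and 0.44 at d15 (limma adjusted p = 0.0415 and 0.0476). Cox7a2l, Cox4i1, Cox5b, Sdhb, Ndufa6 and Atp5g3 had log2 fold changes of 0.42 to 0.50 at d15 without passing the test, with limma adjusted p of 0.05001 to 0.0523.

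The d15 calls rest on few libraries. With any of the 3 naive or 2 d15 libraries left out, 0 members were called at d15 and 0.0798% to 1.06% of all genes were called higher, while the members' median was 0.31 to 0.41. Without d35 replicate 2 or d35 replicate 3, which enter through the shared spread only, the count was 21 and 44, where 3.47% and 5.49% of all genes were called higher. In the authors' deposited table for d15 against naive, 84 of the 90 listed members had a positive log2 fold change. Their median in the authors' deposited table was 0.36, against -0.005 for all its 10778 genes. The authors' deposited table gives 6 members a false discovery rate under 0.05, as it does 389 of its 10778 genes.

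At day 35, members of all 5 complexes again had higher values than in naive macrophages, and more than at d15 passed the test. The limma test called 55 of 90 members higher and 0 lower at d35 (0 lower at an unadjusted p under 0.05 and 0 lower by edgeR or DESeq2), where it called 9.86% of all genes higher and 6.32% lower. The median log2 fold change of members was 0.39, against -0.002 for all genes tested, and 86 members were above 0. All 3 d35 libraries lay above all naive libraries in 69 members, a pattern seen in 20.7% of all genes. The call counts were 24 of 44 in complex I, 3 of 8 in complex II, 6 of 8 in complex III, 9 of 13 tested in complex IV and 13 of 17 in complex V. Median log2 fold changes at d35 were 0.37 for complex I, 0.23 for II, 0.48 for III, 0.45 for IV and 0.41 for V. The complexes differ in their share of assembly factors. In complex II the 4 core genes had a median of 0.36 and held its 3 calls, and its 4 assembly factors had 0.17. The core genes of complexes I and V had medians of 0.38 each. Both tumor groups were compared with the same naive libraries, so these values are not independent of those at d15.

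**Figure D2:**
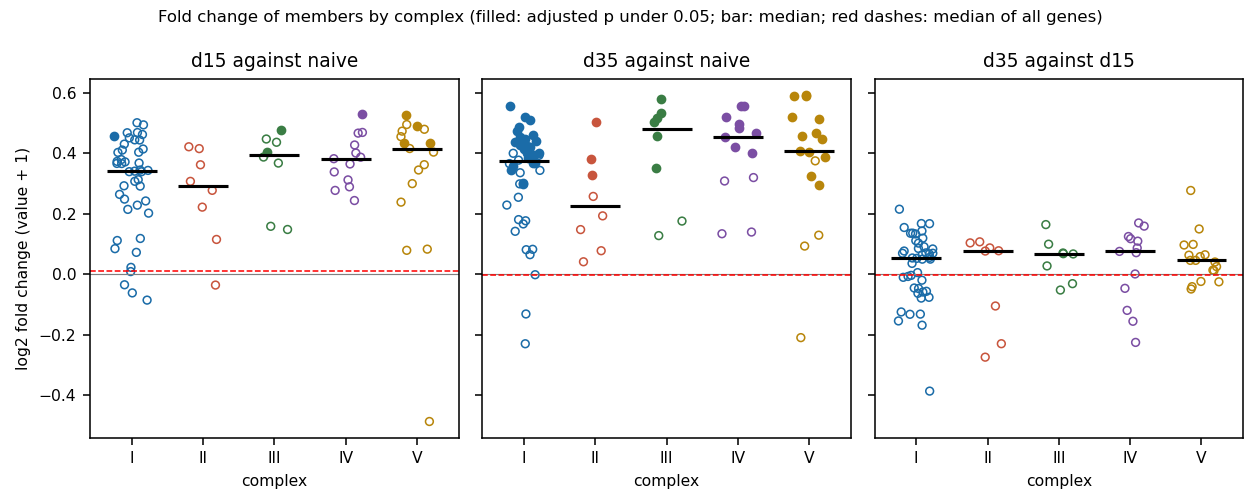
Log2 fold change of the 90 tested members by complex, for d15 against naive, d35 against naive and d35 against d15. Each point is a gene, filled where the limma adjusted p was under 0.05, black bars are medians per complex and the red dashed line is the median of all genes tested. Filled points number 8 at d15, 55 at d35 and 0 between d35 and d15.

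In complex I at d35, limma called 20 of 29 accessory subunits, 4 of 7 core subunits and 0 of 8 assembly factors higher, beside 9.86% of all genes. Ndufa1, a small membrane subunit needed for assembly, had the highest log2 fold change of complex I, with 27.1, 24.0 and 32.3 scaled CPM in d35 libraries, 22.4 and 27.7 in d15 libraries, and 17.4, 17.8 and 20.1 in naive libraries. All d35 values lay above all naive values (log2 fold change 0.56 ± 0.13, limma adjusted p = 0.0181). Ndufb8, a subunit of the membrane arm, had 47.7, 43.6 and 53.4 scaled CPM in d35 libraries, 44.7 and 45.5 in d15 libraries, and 33.1, 34.1 and 37.1 in naive libraries (log2 fold change at d35 0.46 ± 0.09, limma adjusted p = 0.0106). Among the core subunits, Ndufs3, Ndufs7, Ndufs8 and Ndufv2 were called higher at d35, with log2 fold changes of 0.38 to 0.43. The core subunits Ndufs1 and Ndufv1 were not called, and Ndufs1 had 145, 147 and 140.3 scaled CPM in d35 libraries, 141 and 131 in d15 libraries, and 143, 137 and 152 in naive libraries. The groups of Ndufs1 overlap, and its log2 fold change at d35 was -0.001 ± 0.07.

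In complex II at d35, the genes of the iron-sulfur subunit and of both membrane anchors rose, while that of the catalytic subunit did not pass the test. Sdhb, the iron-sulfur subunit, had 184, 165 and 203 scaled CPM in d35 libraries, 164 and 181 in d15 libraries, and 117, 132 and 139.6 in naive libraries. Its d35 and naive values did not overlap (log2 fold change 0.50 ± 0.09, limma adjusted p = 0.00794). Sdhd, a membrane anchor, had 246, 223 and 259.5 scaled CPM in d35 libraries, 229 and 222 in d15 libraries, and 176, 186 and 196 in naive libraries (log2 fold change at d35 0.38 ± 0.07, limma adjusted p = 0.00960). Sdhc, the other anchor, was also called (0.33 ± 0.07, limma adjusted p = 0.0163). Sdha, the flavoprotein that oxidizes succinate, had 439, 426 and 424 scaled CPM in d35 libraries, 416 and 398 in d15 libraries, and 431, 401 and 421 in naive libraries, with overlapping groups. Its log2 fold change at d35 was 0.04 ± 0.06 (limma adjusted p = 0.681).

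In complex III at d35, the 6 called genes were Uqcrfs1, Uqcrh, Uqcrb, Uqcrq, Uqcr10 and Uqcr11. Uqcrh, the hinge protein beside cytochrome c1, had 40.8, 37.5 and 45.1 scaled CPM in d35 libraries, 35.1 and 41.6 in d15 libraries, and 26.7, 25.5 and 29.3 in naive libraries. Its d35 values lay above all naive values (log2 fold change 0.58 ± 0.10, limma adjusted p = 0.00638). The 2 large core-protein genes, Uqcrc1 and Uqcrc2, had log2 fold changes of 0.18 and 0.13 at d35 and were not called. Uqcrc2 had 156, 149 and 164 scaled CPM in d35 libraries, 161 and 158 in d15 libraries, and 141, 139 and 149.6 in naive libraries.

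In complex IV at d35, Cox5b, a subunit facing the matrix, had 41.8, 41.2 and 51.9 scaled CPM in d35 libraries, 40.2 and 43.96 in d15 libraries, and 27.7, 31.8 and 30.9 in naive libraries (log2 fold change 0.56 ± 0.11, limma adjusted p = 0.00821). Cox7b, a small transmembrane subunit, had 56.1, 49.9 and 69.5 scaled CPM in d35 libraries, 49.8 and 53.1 in d15 libraries, and 37.6, 38.2 and 41.5 in naive libraries (0.56 ± 0.11, limma adjusted p = 0.0109). Both genes had d35 values above all naive values. Ndufa4, known by name as a complex I gene and now assigned to complex IV, was not called. It had 58.9, 63.9 and 79.6 scaled CPM in d35 libraries, 76.7 and 80.1 in d15 libraries, and 59.2, 59.8 and 63.0 in naive libraries. The d35 values of Ndufa4 overlap the naive values, and neither comparison passed the test, at 0.37 ± 0.12 for d15 (limma adjusted p = 0.0827) and 0.14 ± 0.10 for d35 (0.373).

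In complex V at d35, Atp5o and Atp5e had limma adjusted p of 0.00615 and 0.00787, at log2 fold changes of 0.59 each. Atp5md, a small subunit of the membrane part, had 17.3, 15.0 and 18.9 scaled CPM in d35 libraries, 15.1 and 16.5 in d15 libraries, and 10.9, 11.1 and 10.7 in naive libraries (0.59 ± 0.11, limma adjusted p = 0.00839). The c-ring genes Atp5g1 and Atp5g3 were called at d35, at 0.51 and 0.46, and the lower Atp5g2 had 0.38 ± 0.16 without passing. Atp5b, the most abundant member, had 1365, 1304 and 1411 scaled CPM in d35 libraries, 1378 and 1314 in d15 libraries, and 1284, 1218 and 1319.9 in naive libraries. The groups of Atp5b overlap, and its log2 fold change at d35 was 0.09 ± 0.07 (limma adjusted p = 0.403). Atp5l was below 0 in both comparisons with naive (-0.49 at d15 and -0.21 at d35), passed neither test, lay under 5 scaled CPM in all libraries, and shares 84.8% of its 50-base stretches with other genes, so its assignment of reads is uncertain. The same holds in part for 28 of the 90 members, Atp5l among them, which share 10% or more of these stretches. Of these 28, limma called 3 at d15 (Atp5h, Atp5o and Cox6c) and 17 at d35, where 2.37% and 9.86% of all genes were called higher. Those called at d35 include Atp5h at 47.9% shared, Uqcrb at 43.4%, Ndufs3 at 39.7%, Atp5f1 at 38.7%, Atp5o at 34.0% and Cox5b at 25.9%. The median log2 fold change of the 28 was 0.38 at d15 and 0.39 at d35, against 0.35 and 0.39 over the 62 other members, of which 5 and 38 were called.

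**Figure D3:**
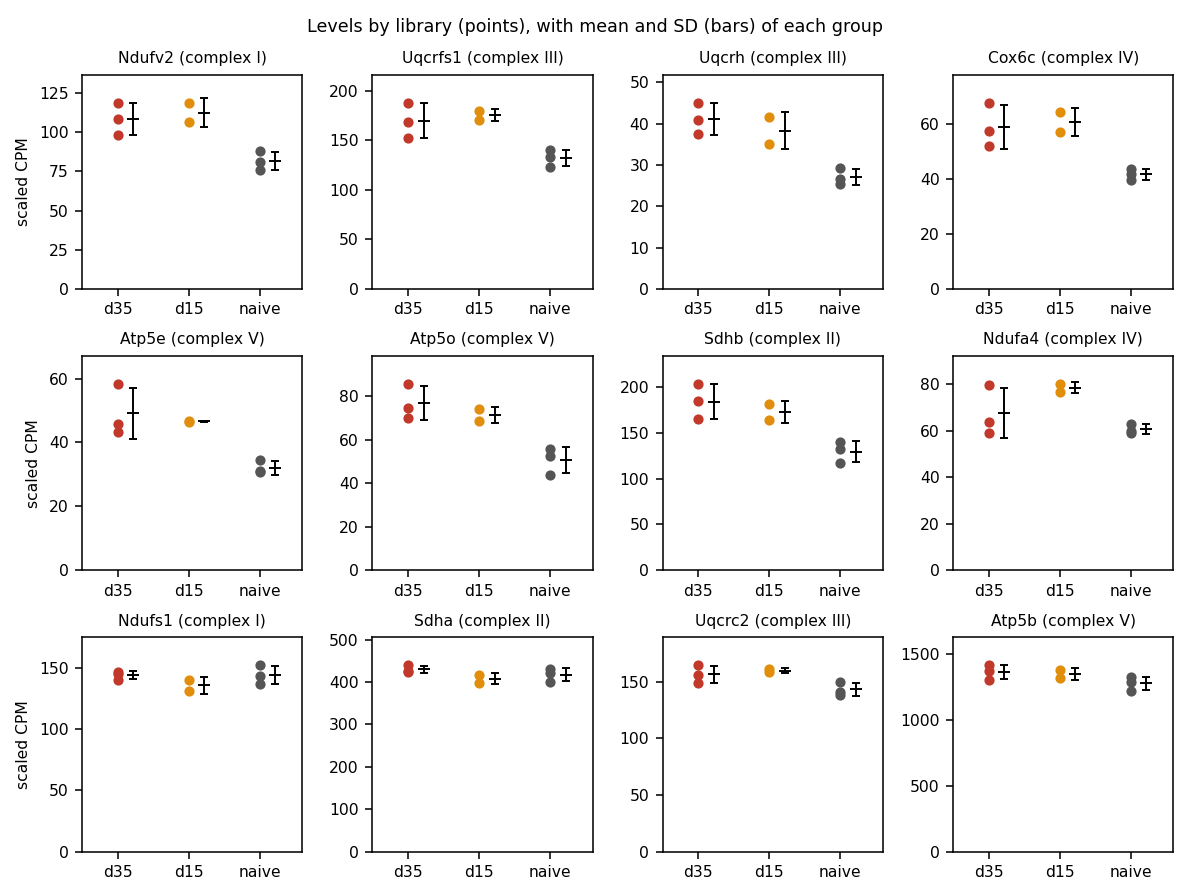
Scaled CPM of 12 members in each library, with the mean and SD of each group (3 d35, 2 d15 and 3 naive libraries). The 7 members drawn first had d35 values above all naive values, while Ndufa4, Ndufs1, Sdha, Uqcrc2 and Atp5b had overlapping d35 and naive values.

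Genes classed here as assembly factors, most of which help to build the complexes, were not called in the main limma fit. Of 13 tested, 0 passed the limma test in either comparison with naive, where 2.37% of all genes at d15 and 9.86% at d35 were called higher. At those shares few calls would come in 13 genes, so 0 of 13 does not separate assembly factors from all genes. Of the 13, 6 at d15 and 4 at d35 were higher at an unadjusted p under 0.05 in limma. Of all 11273 genes tested, 2954 at d15 and 3654 at d35 had such a p, in either direction. edgeR called 0 of the 13 at d15 and 1 at d35, and DESeq2 called 3 and 1, all higher. Their median log2 fold change was 0.31 at d15 and 0.19 at d35, against 0.29 and 0.38 for the 20 core subunits and 0.37 and 0.42 for the 57 tested accessory subunits. Ndufaf4, an early complex I factor, had 21.99, 21.8 and 23.5 scaled CPM in d35 libraries, 26.7 and 32.8 in d15 libraries, and 18.3, 22.7 and 22.6 in naive libraries. It was above all naive values at d15 but not at d35, and its difference between d35 and d15, -0.39 ± 0.13, did not pass (limma adjusted p = 0.100). Ndufaf7 and Ndufaf1, also complex I factors, had all d35 values below all naive values, at -0.23 and -0.13, and neither passed the test. They were the only 2 of 90 tested members with that pattern, which was seen in 1795 of all 11273 genes tested. Cox7a2l, classed here as a complex IV assembly factor, lay just above the threshold (limma adjusted p = 0.05001 at d15 and 0.0511 at d35). Limma called it higher at d15 with a pseudocount of 0.25, a filter at a value of 5 or TMM scaling.

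Between the tumor times the members did not separate. In d35 against d15, limma, edgeR and DESeq2 each called 0 of 90 members, where limma called 7.39% of all genes in either direction, and 2 members, Ndufaf4 and Sdhaf2, had an unadjusted p under 0.05. The median log2 fold change was 0.06, against -0.003 for all genes. Without d35 replicate 3 it was -0.05, and Ndufa4 was then called lower.

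By library, the rise was uneven within d35. The median difference of members from the naive mean, in log2 units, was 0.34, 0.24 and 0.59 in the d35 libraries, 0.31 and 0.40 in the d15 libraries, and -0.07, -0.01 and 0.07 in the naive libraries. Replicate 3 of d35 held the highest value of all 8 libraries for 69 of the 90 members, and replicate 1 of naive the lowest for 60. Members together took 0.791%, 0.771% and 0.885% of the summed values in d35 libraries, 0.807% and 0.845% in d15 libraries, and 0.711%, 0.724% and 0.758% in naive libraries. Every d35 and d15 library lies above all naive libraries in this share, and both d15 values lie within the d35 range. The counts of calls at d35 depend on single libraries, and the share of all genes called higher, 9.86% with all libraries, moves with them. Without d35 replicate 3 the limma test called 22 members and 5.61% of all genes higher. Without naive replicate 1 it called 11 members and 4.75% of all genes, and without naive replicate 2 it called 9 members and 4.05%. It called 33 members and 5.82% of all genes without naive replicate 3, and 32 members and 5.74% without d35 replicate 1.

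**Figure D4:**
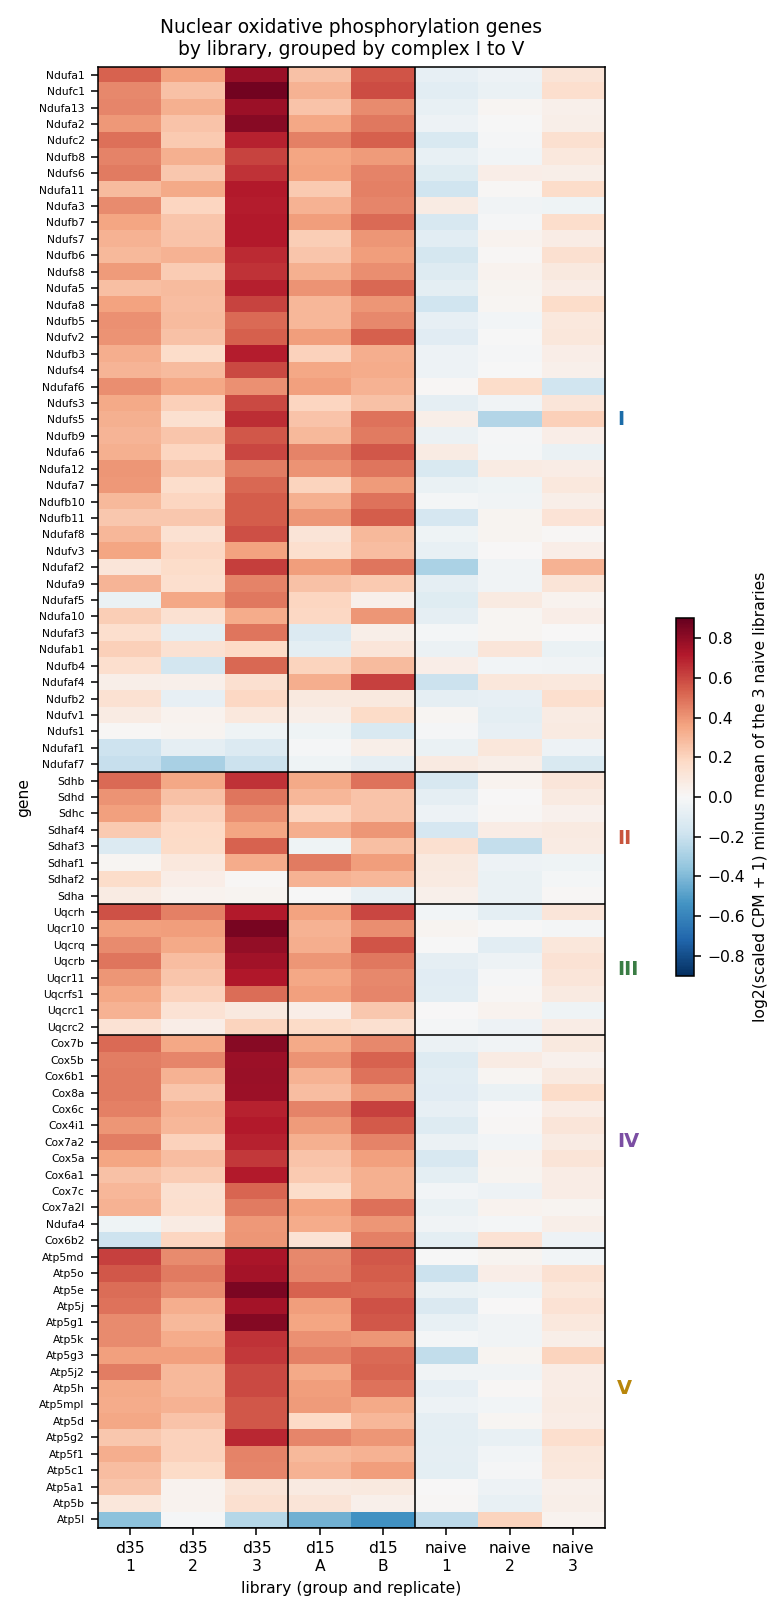
Difference of 89 of the 90 tested members from the mean of the naive libraries, in log2(scaled CPM + 1), by library, with d35, d15 and naive libraries from left to right. Genes run from the highest to the lowest d35 fold change within complexes I to V, and red is higher. The third d35 column is the darkest, in step with its median of 0.59.

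Transcript length moved with these values. Members are short, with a median transcript of 759 bases, against 2701.5 for all genes tested, and 71 of the 90 fell in the shortest of 5 equal length groups of genes. The shortest of these 5 groups had a median log2 fold change of 0.19 at d15 and 0.20 at d35, against -0.15 at both times for the longest. Within the members, Spearman's rho between length and log2 fold change was -0.44 at d15 and -0.55 at d35, across genes that share libraries. Set beside all genes of like length at d35, members had a median of 0.47, against 0.35 for all genes, under 500 bases, 0.42 against 0.28 from 500 up to 1000 bases, and 0.38 against 0.15 from 1000 up to 1500 bases. At d15 the medians of members and all genes were 0.40 and 0.34, 0.39 and 0.25, and 0.34 and 0.16 in those bins. All genes include the members, which are 13 of 68, 42 of 796 and 15 of 1242 genes there. From 1500 up to 2000 bases, 8 members had a median of 0.16 at d35 and 0.15 at d15, against 0.07 for all genes at both times. From 2000 bases, 12 members had 0.11 and 0.10, against -0.06 and -0.05.

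**Figure D5:**
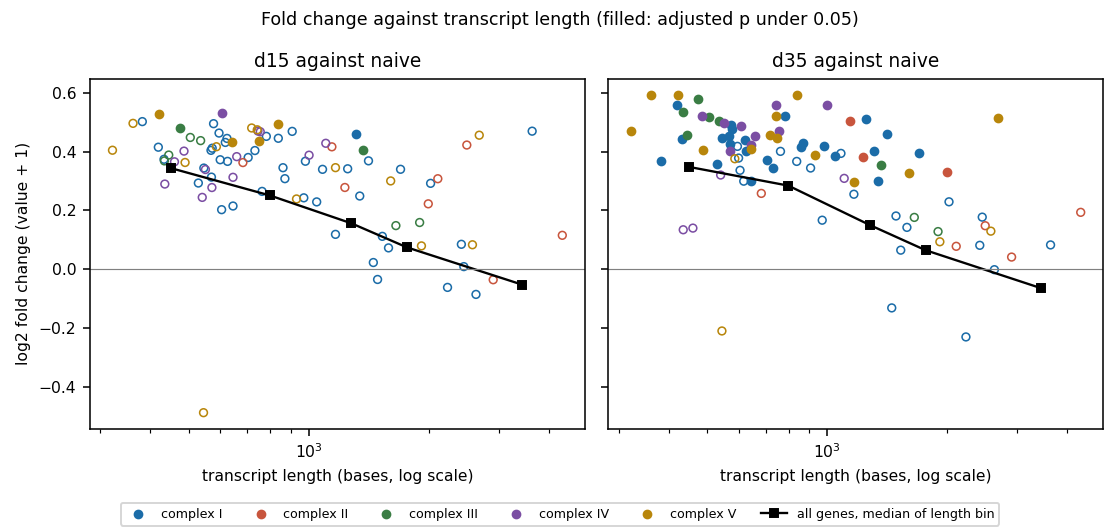
Log2 fold change of the 90 tested members against transcript length on a log axis, at d15 (left) and d35 (right), colored by complex and filled where the limma adjusted p was under 0.05. Black squares join the medians of all genes tested in 5 length bins, at d35 from 0.35 in the shortest to -0.06 in the longest.

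After a correction for length fitted over all genes, limma called 0 members at d15 (24 were higher and 1 lower at an unadjusted p under 0.05), where 1.7% of all genes were called higher. At d35 it called 12, all higher, where 6.6% of all genes were called higher. There 31 members were higher and 4 lower at an unadjusted p under 0.05 in limma, and 2 of the 4 lower were assembly factors. The corrected medians of members were 0.12 at d15 and 0.13 at d35. The 12 were Ndufa13, Ndufb8, Ndufs4 and Ndufv2 in complex I, Sdhb, Sdhc and Sdhd in complex II, Cox5b and Cox7b in complex IV, and Atp5f1, Atp5g1 and Atp5o in complex V. For Atp5g1 the correction used its annotated length of 2675.5 bases, and whether the call holds at a shorter length was not tested. Complex II, which has the longest transcripts of the 5 complexes, had a corrected median of 0.19 at d35, against 0.11 for complex I, 0.15 for complex III, 0.15 for complex IV and 0.16 for complex V. The corrected log2 fold change of Sdhb at d35 was 0.33 (limma adjusted p = 0.0159). Whether the length trend comes from the cells or from the libraries was not tested.

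Genes of neighbouring pathways were taken from lists written for this work. Of 41 tested electron transport and assembly genes outside the symbol rule, 0 were called at d15 by limma or edgeR and 2 by DESeq2, with 11 higher and 1 lower at an unadjusted p under 0.05, and 7 rose at d35: Cycs and Cyc1 (cytochrome c and c1), Uqcc2, Coa3, Coa6, Coa7 and Atpif1 (the ATPase inhibitory factor). The median log2 fold change of that list was 0.13 at both times. After length correction, limma called 2 of the 41 higher at d35. Of all genes, it called 9.86% higher at d35, and 6.6% after that correction. Atpif1 had 56.6, 53.4 and 68.6 scaled CPM in d35 libraries, 47.8 and 52.1 in d15 libraries, and 36.5, 41.0 and 44.3 in naive libraries (log2 fold change at d35 0.54 ± 0.11, limma adjusted p = 0.0109). Of 21 citric acid cycle and pyruvate genes, 0 were called at d15 by limma or edgeR and 2 by DESeq2 (3 higher and 2 lower at an unadjusted p under 0.05), and 4 rose at d35, among them Idh3b, Mdh2 and Mpc1, with a list median of 0.07. After length correction, limma called 1 of the 21 higher at d35. Of 13 coenzyme Q synthesis genes, limma called 1, Coq7, higher and 0 lower at d35. That call depends on the test, since edgeR called 0 higher and 1 lower, DESeq2 called 1 higher and 1 lower, and limma after length correction called 0 higher and 1 lower. Among 14 tested biogenesis regulators at d35, limma called Nfe2l2 (NRF2, a redox factor distinct from GABP) higher and Esrrg, an estrogen-related receptor, lower. Their log2 fold changes were 0.30 and -0.65, and Ppargc1a was not analysed here. These calls also depend on the test. edgeR called 1 regulator higher and 0 lower at d35, DESeq2 called 1 higher and 2 lower, and limma after length correction called 0 higher and 0 lower. At d15 limma and edgeR called 0 coenzyme Q genes and 0 regulators, DESeq2 called 2 regulators lower, and 2 coenzyme Q genes were higher and 3 regulators lower at an unadjusted p under 0.05 in limma. Between d35 and d15, limma and edgeR called 0 genes of these 4 lists, and DESeq2 called 1 electron transport gene, 2 citric acid cycle genes and 1 regulator. At an unadjusted p under 0.05 in limma, 1, 5, 5 and 2 genes of the electron transport, citric acid cycle, coenzyme Q and regulator lists differed.

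Glycolysis genes differed between the tumor times. Of 20 tested, 0 were called at d15 by limma, edgeR or DESeq2 (1 higher and 1 lower at an unadjusted p under 0.05, list median 0.09), 12 rose at d35 (0.38), and 6 were higher at d35 than at d15 (0.35), beside the 0 of 90 members called between those times. Limma called 9.86% of all genes higher at d35, and after length correction it called 9 of the 20 glycolysis genes higher there. Pgam1, phosphoglycerate mutase, had 67.8, 52.3 and 62.6 scaled CPM in d35 libraries, 39.6 and 43.9 in d15 libraries, and 35.9, 35.1 and 34.9 in naive libraries. Of the 13 mitochondrially encoded subunit mRNAs, 7 were analysed here, and limma, edgeR and DESeq2 called 0 in every comparison, with 1 lower at d35 than at d15 at an unadjusted p under 0.05. Their medians were 0.29 at d15 and 0.005 at d35, and their summed values, 3997 to 5343 in d35 libraries, 5340 and 5483 in d15 libraries and 3510 to 5573 in naive libraries, overlap between groups.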

How the data were processed

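RNA sequencing libraries of sorted alveolar macrophages were used, 3 of d35, 2 of d15 and 3 of naive mice. cDNA was made from small amounts of RNA of sorted cells with the SMART-Seq v4 kit, per the labels' protocols. The submitters' processing notes name STAR 2.5, build mm10 and edgeR. How reads were counted, with which annotation and whether by strand, is not given in the sources used here, so reads of near-identical genes could have been split. The authors deposited a scaled signal per gene, (reads + 0.5) over (scaled library size + 1) as CPM, and 100% of the values came out as whole reads within 0.001. The fewest reads of a gene were 41, so genes with few reads had been removed from it. For d15 against naive the authors' deposited table gives, per the file headers, p-values, log2 fold changes and a test score. The d15 columns carry numbers 2 and 3 and the titles 1 and 2, so they were assigned to the group only, as replicates A and B.

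limma 3.58.1 (R 4.3.3), with an intensity trend, was fitted to log2(value + 1) of 11273 genes that reached a value of 1 in 2 or more libraries, with the group as the only term and all 8 libraries sharing the spread (residual df 5, prior df 5.72). On this scale changes of low genes come out too small. P-values were adjusted over all genes and called at 0.05. edgeR 4.0.16 and DESeq2 1.42.0 on the recovered reads were alternatives, and the limma script was first tested on simulated data. Transcript lengths are medians of GENCODE M21 protein-coding transcripts, and the length correction removed from each library a lowess curve (span 0.3) of its deviations on length. Shared sequence was counted in stretches of 50 bases.

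The members, lists, tests and alternatives were chosen with earlier results of these data known. Members were named in each comparison where called (at most the 15 of smallest adjusted p), at the extremes of fold change or level in each complex, or as isoforms, and of each other pathway list the gene of smallest adjusted p. Others were named after their values were seen, and some genes are not reported here by name. Same-numbered d35 and naive libraries did not all deviate together, so no pairing was used.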

Additional observations from a re-analysis of the deposited data

How the results depend on the processing

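At d15, 8 members were called, where 2.37% of all genes were called higher. The count was 15 (3.36% of all genes) with a filter at a value of 5, 5 (1.91%) with edgeR, 33 (6.09%) with DESeq2 and 40 (5.62%) with only the 2 groups compared. It was 2 (1.37%) with plain library totals, an alternative chosen after seeing the data, and 0 (1.70%) after length correction, which left a median log2 fold change of 0.12 (0.37 before). At d35 the count, 55 (9.86%), was 26 (5.88%) with plain library totals and 12 (6.60%) after length correction, which left a median of 0.13 (0.39 before). Plain totals moved the median of all genes at d35 by -0.11, and members stood 0.39 above that. With a replicate left out, the count ranged from 0 to 44 at d15, from 9 to 60 at d35 and from 0 to 1 between d35 and d15, and the medians from 0.31 to 0.41, 0.29 to 0.46 and -0.05 to 0.12. A lone d15 library is then assumed to vary like the other groups. The 44 members at d15 came with 5.49% of all genes called higher, and the 9 and 60 at d35 with 4.05% and 11.9%. A pseudocount of 0.25, no filter on low values and TMM scaling kept every count of members within 1.5 times the value reported. A replicate block by number for naive and d35 called 49 members and 7.82% of all genes higher, but the numbers share nothing else (correlations of deviations -0.007, -0.046 and 0.147, and d35 replicate 1 went best with naive replicate 2). Over 1852 values of named genes and 18 settings, 1647 stayed on their side of the threshold, 143 lost the call and 62 gained it, and no called value changed sign (34 uncalled values did). The 4 members that did not reach a value of 1 in at least 2 libraries were left out by that filter, and no fold change is given for them.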
